A study of Mus musculus with 10 samples.

Results

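Axon guidance ligands and receptors were examined in sarcomas of 2 mouse models. The set held 67 protein-coding genes of the 56750 features in the count table, of which 21630 were protein-coding. It consisted of 14 Eph receptors, 8 ephrins, 3 Slits, 3 Robos, 3 netrins (Ntn1, Ntn3 and Ntn4), the 5 netrin receptor genes Unc5a to Unc5d and Dcc, 20 semaphorins, 2 neuropilins and 9 plexins. Members were chosen by family name after gene identifiers had been joined to mouse symbols. The rule used no measured value, but the set was picked for study with earlier results of these data known.

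These families steer growing axons by attraction or repulsion, and outside the nervous system they act in blood vessel growth, cell sorting and cell migration. Ephrins bound to one cell surface activate Eph receptor kinases on the next, Slits signal through Robo receptors, and netrins through Dcc and the Unc5 receptors. Secreted class 3 semaphorins bind neuropilins held in complexes with plexins, whereas most membrane-anchored semaphorins bind plexins directly.

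The dFLEx group held 3 tumors (170019, 170024 and 170025) of genotype dFLEx CDS +/-, in which an HA-tagged CIC::DUX4 fusion, knocked into Rosa26 under the CAG promoter, required both Cre and FLP. Per the study's methods, these sarcomas were induced by electroporating Cre and FLPE plasmids, each driven by the broadly active CAG promoter, into the gastrocnemius muscle of mice whose age was given only as a range. The KP group held 2 sarcomas (3800 and 3802) from KP mice, whose genotype includes floxed p53 but no CIC::DUX4 transgene, and how the KP sarcomas were induced is not given in the sources used here. RNA of whole flash-frozen tumors was split into duplicates for paired-end libraries depleted of ribosomal RNA, and the labels list no treatment. The tumor was the replicate, so that p-values measure the spread between 3 and 2 tumors.

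Total counts per tumor ran from 20503474 in 3802, the only tumor with 1 library here, to 82138251 in 170025. Background was highest in 3802, at a mean of 0.107 CPM per kilobase over 1547 olfactory and vomeronasal receptor genes. In the other tumors it was 0.00278 to 0.0239 CPM per kilobase, so low levels of long genes in 3802 are less certain. The transgene had between 4238 and 33600 counts in the dFLEx tumors, 0 in 3800 and 6 in 3802. Marker genes of other cell types also differed between the groups. The summed level of 9 skeletal muscle markers was 6269 to 26335 TMM-scaled CPM (counts put on one scale across tumors of different depth) in dFLEx tumors and 1216 to 3061 CPM in KP tumors. The sum of 7 epithelial markers was 2.08 to 11.7 CPM against 211 to 340 CPM, that of 6 neuronal markers 16.7 to 21.2 CPM against 89.6 to 308 CPM, and that of 6 cartilage markers 562 to 2461 CPM against 138 to 157 CPM. The neuronal difference lay mainly in Stmn2, at 2.48 to 5.57 CPM in dFLEx and 61.7 to 279 CPM in KP tumors, while Rbfox3 and Snap25 lay between 0.0806 and 5.69 CPM in all 5 tumors. Of the 6 cartilage markers 4 were higher in every dFLEx tumor. Sox9 went the other way, at 34.5 to 68.4 CPM in dFLEx and 132 to 155 CPM in KP tumors, and made up most of the KP sum. Macrophage markers (8 genes, 657 to 800 against 1709 to 1792 CPM) and T cell markers (6 genes, 6.25 to 8.63 against 11.3 to 51.4 CPM) were lower in dFLEx tumors. Endothelial markers (8 genes, 326 to 566 against 185 to 207 CPM) and pericyte markers (5 genes, 588 to 1016 against 86.9 to 353 CPM) were higher in sum. Gene by gene, 6 of the 8 endothelial and 3 of the 5 pericyte markers overlapped between groups. The pericyte sum in dFLEx tumors was mostly Rgs5, which lay above both KP tumors in every dFLEx tumor. Among the overlapping pericyte markers Cspg4 had a negative log2 fold change (-0.36). Schwann and glial markers (8 genes, 82.1 to 119 against 72.5 to 80.1 CPM) were close in sum, and the sums of 6 fibroblast markers (4015 to 13057 against 1920 to 4379 CPM) and 4 B cell markers (3.24 to 5.93 against 2.22 to 34.7 CPM) overlapped. No marker list was at 0 in any tumor. The part of these cell types in the results below was not tested, and in such bulk samples fewer cells of a type and less RNA per cell cannot be told apart.

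Of the 67 members 66 were tested, Epha8 being too low (0 to 0.124 CPM). By edgeR's quasi-likelihood test 0 of 66 members passed a Benjamini-Hochberg adjusted p of 0.05, where 45 of 24743 tested genes did (0.182%). At an unadjusted p under 0.05 the test picked 25 members (37.9%), against 10.6% of all tested genes and 13.4% of tested protein-coding genes. Of these 17 were higher in dFLEx tumors and 8 were lower. Among all tested genes 5.65% had such a p and were higher, and 4.93% had such a p and were lower. The split was 13 higher and 10 lower with upper-quartile scaling, and 9 and 11 without tumor 170025. It was 14 and 14 with each tumor's trend with transcript length and GC content removed. With that trend removed the median log2 fold change was -0.01 for the members and -0.36 over all tested genes. With the same tumor sums DESeq2 called 20 members at an adjusted p of 0.05 (12 higher and 8 lower), beside 6.13% of all genes, and limma-voom on libraries called 7 members (4 higher and 3 lower), beside 2.78% of all genes. Since no member passed the main test, members are described by their levels and by whether the groups overlapped.

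Where levels separated the groups, the dFLEx tumors were mostly on the higher side. All 3 dFLEx tumors lay above both KP tumors for 23 of 66 members (34.8%, beside 13.7% of all tested and 16.3% of tested protein-coding genes). They lay below both for 9 members (13.6%, beside 11.7% and 12.4%), a share near that of other genes. Without 3800, 69.7% of members and 70.0% of all tested genes did not overlap, and without 3802 80.3% and 59.9%. The median log2 fold change of the members, dFLEx over KP, was 0.29, beside -0.18 over all tested and -0.04 over tested protein-coding genes. Their median absolute log2 fold change was 1.42, beside 0.84 and 0.72. The sign of the median depended on 170025: without that tumor it was -0.35 for the members and -0.26 over all tested genes. A consensus list of 235 CIC::DUX4 target symbols held 0 of the 67 members. The plot of all log2 fold changes shows the separation to be uneven across families, with the extremes among Eph receptors and semaphorins and the values nearest 0 among plexins.

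**Figure D1:**
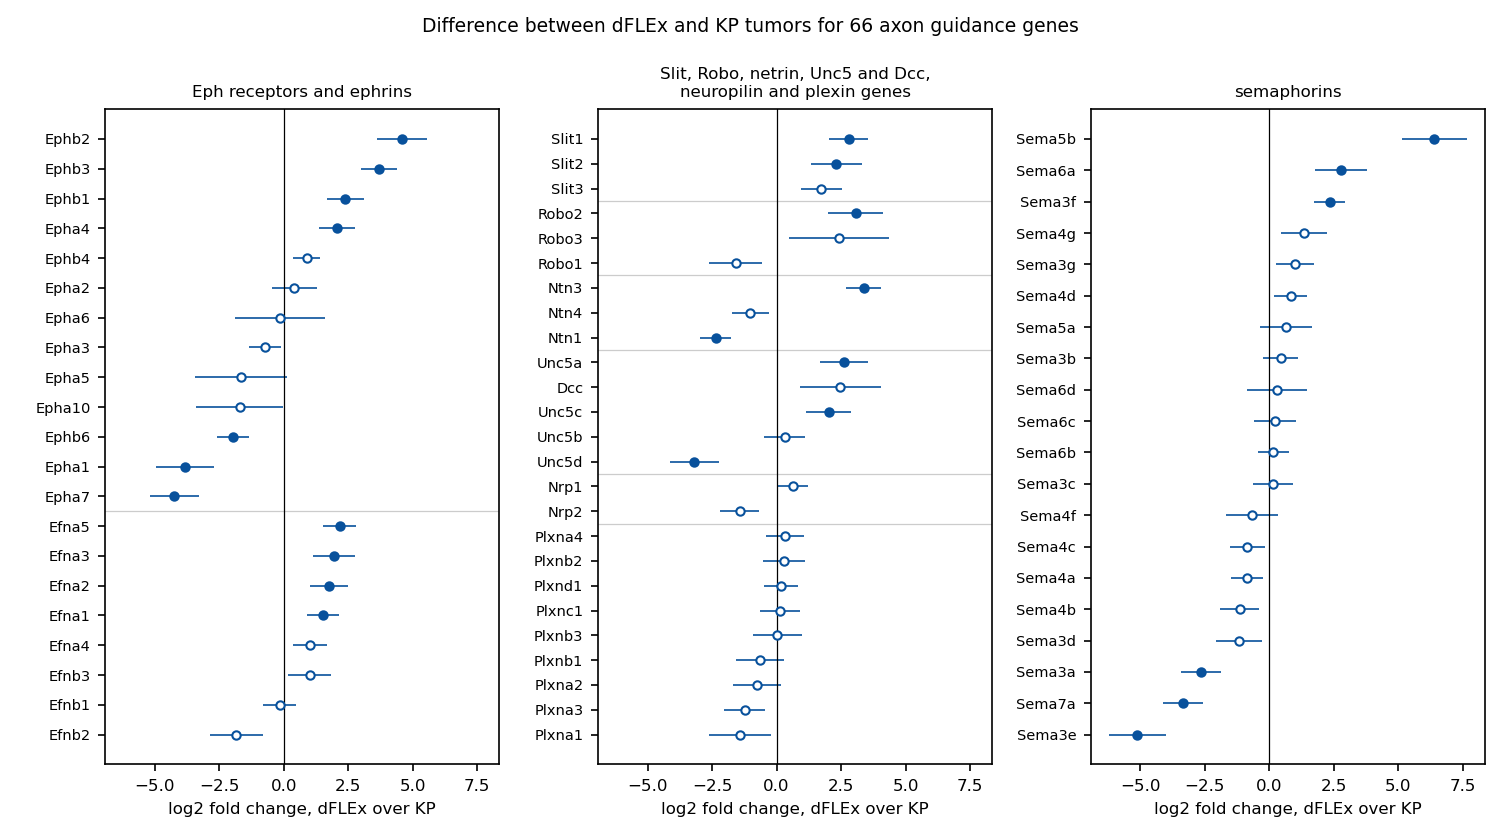
Log2 fold change (x axis, dFLEx over KP) of each of the 66 tested members, with bars of 1 standard error from edgeR; filled points have an unadjusted p under 0.05, open points do not, and grey lines separate families. Sema5b (6.39) and Sema3e (-5.12) are the extremes, and the 9 plexins lie between -1.41 and 0.33.

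Members vary within each group as well. The members are long transcripts, with a median exonic length of 6855 bases against 4240 bases for tested protein-coding genes. Among the 62 members with a mean of at least 1 CPM, tumor 170025 was the highest of the dFLEx tumors for 49 (79.0%), against 56.7% of protein-coding genes at that level. When all genes at that level were divided into 4 equal bins of exonic length, 170025 was highest for 78.2% of the longest bin. The level in 170025 was a median of 2.02 times the mean of the other dFLEx tumors for the members and 2.12 times for that longest bin. Tumor 3800 exceeded 3802 for 41 of 62 members (66.1%), against 67.6% of protein-coding genes. With each tumor's trend with length and GC content removed, 28 members had an unadjusted p under 0.05, beside 13.3% of all genes, and 4 members passed the adjusted threshold (Ephb2, Ephb3, Ntn1 and Sema5b), beside 0.768%. Duplicates of a tumor were closer than tumors were, with a median coefficient of variation over these members of 4.18% to 10.3% between duplicates and of 56.0% among dFLEx and 55.6% between KP tumors.

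Among the Eph receptors the highest positive fold changes were in the B class. Ephb2, Ephb3 and Ephb1 were several-fold higher in mean, and Epha1, Epha7 and Ephb6 several-fold lower, with no overlap between groups for any of the 6. For Epha1 the gap between 170025 and 3802 was only 1.12-fold. Of 13 tested receptors 4 were higher and 3 lower at an unadjusted p under 0.05 (53.8%, beside 13.4% of tested protein-coding genes). Values below run through 170019, 170024 and 170025, then 3800 and 3802. Ephb2 (chr4:136374850-136563299, GRCm39), a receptor kinase for B-class ephrins that controls cell sorting at tissue borders, was at 66.5, 106 and 364 CPM in dFLEx tumors and at 8.73 and 6.18 CPM in KP tumors. Its lowest dFLEx value exceeded its highest KP value 7.62-fold, and the dFLEx tumors were themselves spread from 66.5 to 364 CPM. The log2 fold change was 4.58 with a standard error (SE) of 0.98 (edgeR adjusted p = 0.123), and 3.53 without tumor 170025. Ephb3 (chr16:21023505-21042055), its close relative with a similar role in gut epithelium, was at 75.9, 87.4 and 130 CPM against 10.0 and 5.12 CPM. This was the most even of the large differences in the family, with 97.8 ± 28.6 CPM (SD, n = 3) against 7.58 ± 3.48 CPM (SD, n = 2) and a log2 fold change of 3.69 (SE 0.70), for which the edgeR adjusted p of 0.10 was the smallest among the members.

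The other B-class receptors were lower in level or in contrast. Ephb1 was at 9.30, 21.1 and 15.5 CPM against 2.02 and 3.86 CPM (log2 fold change 2.39, SE 0.72). Ephb4, the receptor that marks venous endothelium and binds ephrin-B2, was at 188, 200 and 192 CPM against 106 and 102 CPM. The groups did not overlap and the SD was 6.18 CPM among dFLEx and 2.79 CPM between KP tumors, but the log2 fold change of 0.90 (SE 0.52) had an edgeR adjusted p of 0.676. Ephb6, which lacks kinase activity, went the other way with 1.62, 2.48 and 2.32 CPM against 9.90 and 6.66 CPM (log2 fold change -1.95, SE 0.62).

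A-class receptors showed no common direction. Of 8 tested members 2 had a positive and 6 a negative log2 fold change. Epha4, which binds ephrins of both classes, was at 16.6, 16.6 and 31.7 CPM against 6.77 and 3.54 CPM (log2 fold change 2.07, SE 0.69). Epha7 had 26, 24 and 8 counts in the dFLEx tumors against 755 and 107 counts, or 0.647, 0.416 and 0.101 CPM against 10.1 and 4.35 CPM (log2 fold change -4.24, SE 0.95). Epha1, an epithelial Eph receptor, was at 0.547, 0.347 and 0.907 CPM against 16.0 and 1.02 CPM. The KP mean of Epha1 thus came from 3800, and the log2 fold change of -3.82 shrank to -0.58 without that tumor. Per kilobase Epha1 was at 0.231 CPM in 170025 and 0.259 CPM in 3802. The mean background of 3802 was 0.107 CPM per kilobase, so the order of these tumors is uncertain. Of the 7 epithelial markers 5 were lower in every dFLEx tumor, among them Krt8 and Krt18 at 0.416 to 1.57 CPM against 39.0 to 212 CPM. The other 2, Krt5 and Krt14, overlapped between groups and were at 0.282 and 0.0134 CPM in 3800. Epha2, a receptor often abundant in tumors, was at 73.2, 95 and 258 CPM against 180 and 33.9 CPM. The KP tumors bracketed 2 of the 3 dFLEx values, and the log2 fold change of 0.41 (SE 0.87) turned to -0.34 without 170025 and to -0.33 without 3802.

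Per kilobase of exon, which allows levels of different genes to be compared, Ephb4 and Epha2 were the leading Eph receptors in every tumor. Ephb4 took 51.9%, 46.9% and 27.0% of the summed receptor level in the dFLEx tumors and 31.1% and 60.2% in the KP tumors, and Epha2 took 20.1%, 22.1% and 36.1% against 52.5% and 19.9%. Ephb2 and Ephb3 together took 21.4%, 23.5% and 31.7% of that level in dFLEx tumors and 3.00% and 3.45% in KP tumors.

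CIC recognizes octamers of the form TGAATGAA or TGAATGGA, so promoters of the members were searched for both on both strands. RefSeq windows (GRCm38.p6) of 300 bases, from 250 before to 50 after the annotated start, were at hand for 57 of 67 members in 73 windows. TGAATGAA was found in 1 window, that of Epha2 (1.37% of member windows), and in 1.30% of all 32851 windows, and TGAATGGA was found in 0 member windows and in 1.21% of all windows. The share of member windows was near that of all windows. The 250 bases before the start of Epha2 (chr4:141300971-141301220, + strand) are shown because they hold the octamer, in capitals, with its first base 15 bases before the start. Those of Ephb2 (chr4:136836013-136836262, - strand) and Ephb3 (chr16:21204545-21204794, + strand), the receptors that separated the groups most, hold neither and are shown for comparison.
Epha2: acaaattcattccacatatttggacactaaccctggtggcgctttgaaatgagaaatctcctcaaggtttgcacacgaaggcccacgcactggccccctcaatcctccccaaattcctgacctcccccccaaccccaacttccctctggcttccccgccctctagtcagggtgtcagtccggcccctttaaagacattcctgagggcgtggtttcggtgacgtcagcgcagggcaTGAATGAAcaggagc
Ephb2: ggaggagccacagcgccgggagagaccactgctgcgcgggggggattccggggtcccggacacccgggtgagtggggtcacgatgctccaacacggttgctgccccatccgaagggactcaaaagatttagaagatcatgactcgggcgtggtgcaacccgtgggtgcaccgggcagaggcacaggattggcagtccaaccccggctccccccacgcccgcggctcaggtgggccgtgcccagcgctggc
Ephb3: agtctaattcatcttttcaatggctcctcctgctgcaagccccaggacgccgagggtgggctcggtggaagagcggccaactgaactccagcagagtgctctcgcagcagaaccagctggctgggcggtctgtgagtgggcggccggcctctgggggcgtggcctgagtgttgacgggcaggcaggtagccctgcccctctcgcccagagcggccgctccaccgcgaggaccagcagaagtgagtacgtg

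Ephrin ligands of the A class, and 1 of the 3 of the B class, separated the groups with dFLEx tumors on the higher side. All 5 ephrin-A genes, which encode ligands held to the membrane by a lipid anchor, lay above both KP tumors in each of the dFLEx tumors. Of tested protein-coding genes 16.3% did so. An unadjusted p under 0.05 was held by 4 of the 5, beside 13.4% of tested protein-coding genes. This depended on the scaling. Efna5 alone kept such a p when scaled by library totals or by upper quartile. Efna1 and Efna5 kept it with DESeq2 size factors, and also with the length and GC trend removed. Efna5 was at 40.9, 57.6 and 78.2 CPM against 10.8 and 15.4 CPM (log2 fold change 2.17, SE 0.63, edgeR adjusted p = 0.245). Efna1, the most abundant ephrin per kilobase in the dFLEx tumors, was at 88.9, 47.8 and 50.7 CPM against 19.1 and 24.4 CPM (log2 fold change 1.52, SE 0.61). Here 170025 was not the highest dFLEx tumor, and the same held for Efna3 and Efna4. Efna1, Efna3 and Efna4 lie within one stretch of the genome (chr3:89179040-89245335), and whether they vary independently was not tested. Efna2 was at 21.3, 19.2 and 23.6 CPM against 2.58 and 10.1 CPM, and Efna3 at 3.11, 2.51 and 1.85 CPM against 0.752 and 0.528 CPM. Efna4, at 54.4, 32.5 and 21.9 CPM against 14.5 and 21.2 CPM, separated by only 1.03-fold between 170025 and 3802 (edgeR adjusted p = 0.735). Efna3 and Efna4 share 14.1% and 10.5% of their exonic bases with transcripts on the opposite strand. Counting ignored strand, so reads from the shared bases cannot be assigned to either gene, and the levels are less certain.

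Transmembrane ephrin-B ligands had 0 of 3 genes with an unadjusted p under 0.05. Efnb2, the arterial ligand of Ephb4, was at 9.03, 12.5 and 42.2 CPM in dFLEx tumors and at 137 and 14.1 CPM in KP tumors. The dFLEx values lay on either side of 3802, and the log2 fold change of -1.83 (SE 1.02) turned to 0.76 without 3800. Efnb1 spanned 21.1 to 36.2 CPM in dFLEx and 17.9 to 46.7 CPM in KP tumors. Efnb3 lay above both KP tumors in every dFLEx tumor, at 1.64, 1.65 and 2.24 CPM against 0.618 and 1.22 CPM (log2 fold change 1.01, SE 0.84, edgeR adjusted p = 0.837). Per kilobase, A-class ligands made up 91%, 89.3% and 80.7% of the ephrin level in the dFLEx tumors, 41.3% in 3800 and 82.3% in 3802, so that KP tumor 3800 stood apart from the other 4 tumors. Per kilobase Ephb2 stood at 4.01, 4.61 and 4.69 times the level of Efnb2 in the dFLEx tumors and at 0.0347 and 0.237 times in the KP tumors.

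**Figure D2:**
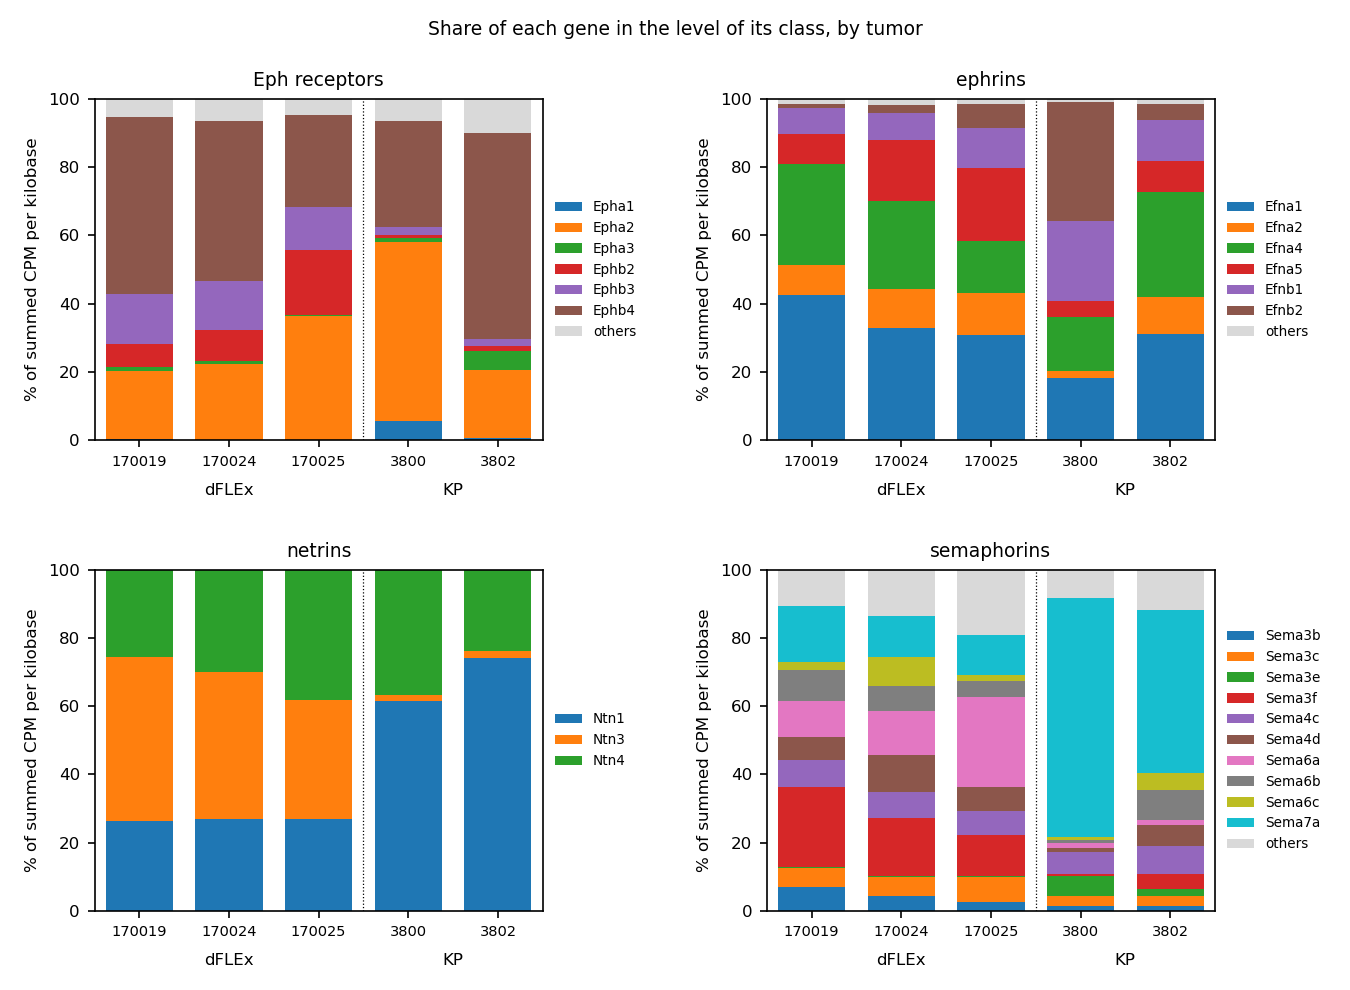
Stacked shares (y axis, % of the summed CPM per kilobase of exon of a family) for each of the 5 tumors, with genes under 5% in every tumor merged as others; the dotted line separates dFLEx from KP tumors. Ntn3 takes 34.7% to 48.3% of the netrin level in dFLEx tumors and 1.79% to 2.02% in KP tumors, and Sema7a takes 11.6% to 16.4% of the semaphorin level in dFLEx and 47.9% to 70.2% in KP tumors.

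Slit ligands were all higher in dFLEx tumors. Slit1, Slit2 and Slit3, secreted ligands of the Robo receptors, each lay above both KP tumors in all 3 dFLEx tumors, as did 16.3% of tested protein-coding genes. An unadjusted p under 0.05 was held by 2 of the 3, beside 13.4% of tested protein-coding genes. Slit1 was at 5.17, 4.65 and 8.15 CPM against 0.645 and 1.10 CPM (log2 fold change 2.79, SE 0.75, edgeR adjusted p = 0.206). Slit2 was at 16.4, 23.3 and 117 CPM against 12.9 and 8.05 CPM. Most of the Slit2 difference was in 170025, and its log2 fold change of 2.32 (SE 0.99) was 0.91 without that tumor. Slit3, the most abundant Slit per kilobase in every tumor at 59.6% to 77.7% of the family, was at 16.0, 15.2 and 54.2 CPM against 6.48 and 10.6 CPM (log2 fold change 1.74, SE 0.80, and 0.85 without 170025).

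The Robo receptors differed in which gene led. Robo2 was at 6.69, 9.16 and 49.6 CPM against 2.38 and 2.84 CPM (log2 fold change 3.06, SE 1.05, and 1.59 without 170025), with the dFLEx tumors above both KP tumors. Robo1 was at 5.47, 4.91 and 23.4 CPM against 60.7 and 7.03 CPM, with overlapping groups and a log2 fold change of -1.59 (SE 1.03) that turned to 0.86 without 3800. Within a tumor, and per kilobase, Robo2 was the higher of the pair in all 3 dFLEx tumors at 1.19, 1.81 and 2.07 times Robo1, whereas Robo1 was 26.2 and 2.54 times Robo2 in 3800 and 3802. Robo3 was near the detection limit of 3 counts, at 0.124 to 0.347 CPM in dFLEx and 0 to 0.0806 CPM in KP tumors.

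Of the netrins, Ntn1 was lower and Ntn3 higher in every dFLEx tumor. Ntn1 (chr11:68100190-68291649), the founding netrin and a ligand that keeps cells with Dcc or Unc5 receptors alive, was at 7.69, 8.79 and 14 CPM in dFLEx tumors against 60.0 and 44.0 CPM in KP tumors. The lower KP tumor was 3.14-fold above the highest dFLEx tumor, and the log2 fold change was -2.36 (SE 0.59, edgeR adjusted p = 0.177). Ntn3 (chr17:24422822-24428505), a netrin that binds the same receptors, was at 11.5, 11.5 and 14.6 CPM against 1.42 and 0.975 CPM (log2 fold change 3.38, SE 0.68, edgeR adjusted p = 0.112). It varied less among dFLEx tumors (12.6 ± 1.81 CPM, SD, n = 3) than most members did. Per kilobase, Ntn3 was at 1.84, 1.6 and 1.28 times Ntn1 in the dFLEx tumors, and Ntn1 was at 34.3 and 36.8 times Ntn3 in the KP tumors. Of the exonic bases of Ntn3 4.46% are shared with other transcripts, including its neighbor Tbc1d24. Ntn4, a netrin of basement membranes, was at 4.45, 5.86 and 11.8 CPM against 21.4 and 8.41 CPM with overlapping groups. Per kilobase Ntn1 led in both KP tumors and Ntn3 in 170019 and 170024, whereas Ntn4 led in 170025 with 38.2% of the netrin level.

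Receptors for netrins were led by Unc5b, an endothelial Unc5 receptor, in all 5 tumors, at 56.1% to 90.8% of the family's level per kilobase. Unc5b itself overlapped between groups, at 59.2, 77.8 and 170 CPM against 135 and 28.9 CPM (log2 fold change 0.32, SE 0.80). Unc5a was at 10.4, 35.4 and 79.1 CPM against 7.15 and 6.30 CPM (log2 fold change 2.63, SE 0.93, edgeR adjusted p = 0.348). Unc5c was at 5.10, 8.15 and 23.6 CPM against 2.04 and 4.02 CPM (log2 fold change 2.02, SE 0.87, and 1.11 without 170025). Both were above the KP tumors in every dFLEx tumor, but 170019 exceeded the higher KP tumor only 1.46-fold for Unc5a and 1.27-fold for Unc5c. Unc5d was the reverse and scarce, with 16, 32 and 8 counts (0.398, 0.555 and 0.101 CPM) against 241 and 77 counts (3.24 and 3.13 CPM), for a log2 fold change of -3.18 (SE 0.96). Dcc, the attractive netrin receptor, was at 1.69, 7.49 and 12.6 CPM against 0.0269 and 2.68 CPM, so that the groups overlapped as measured. Per kilobase Dcc was at 0.128 CPM in 170019 and 0.204 CPM in 3802. The mean background of these 2 tumors was 0.0239 and 0.107 CPM per kilobase, so their order is uncertain.

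Semaphorins held the extremes of the set. Sema5b was under 1 CPM in both KP tumors and above 10 CPM in every dFLEx tumor, Sema6a and Sema3f were several-fold higher there, and Sema7a, Sema3e and Sema3a were several-fold higher in KP tumors. Of the 20 semaphorins 6 had an unadjusted p under 0.05 (30%, beside 13.4% of tested protein-coding genes), 3 in each direction, while 13 overlapped between groups. All dFLEx tumors lay above both KP tumors for 15% of semaphorins and below both for 20%. Among tested protein-coding genes the shares were 16.3% and 12.4%, so separation on the higher side was near that of other genes. Sema5b (chr16:35361515-35485102), a transmembrane semaphorin with thrombospondin repeats, was at 10.6, 12.4 and 49.8 CPM in dFLEx tumors and at 0.457 and 0.0813 CPM in KP tumors. These KP levels rest on 34 and 2 counts against 426 to 3957 in dFLEx tumors, and 2 counts in 3802 is under the limit of 3 counts (0.122 CPM). The log2 fold change was 6.39 (SE 1.27, edgeR adjusted p = 0.109), and 5.32 without 170025. Sema6a, a transmembrane semaphorin that binds A-class plexins, was at 55.5, 90.2 and 355 CPM against 36.2 and 12.3 CPM (log2 fold change 2.78, SE 1.01, and 1.59 without 170025). Its dFLEx values spread over a wider range than the gap between the groups. Sema3f, a secreted ligand of Nrp2 that opposes vessel growth, was at 73.3, 71.1 and 94.8 CPM against 11.9 and 19.8 CPM (log2 fold change 2.33, SE 0.61, edgeR adjusted p = 0.20).

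Sema7a (chr9:57847395-57870148), a lipid-anchored semaphorin that signals through integrins and Plxnc1, was the most abundant semaphorin per kilobase in both KP tumors. It was at 32.9, 31.7 and 58.7 CPM in dFLEx and at 699 and 141 CPM in KP tumors (log2 fold change -3.35, SE 0.77, edgeR adjusted p = 0.145). Both KP tumors lay above every dFLEx tumor, but they differed from each other 4.96-fold, and the value without 3800 was -1.61. Sema3e (chr5:14075290-14306703), the ligand of Plxnd1 in vessel patterning, was at 2.06, 0.884 and 4.62 CPM against 159 and 17.0 CPM (log2 fold change -5.12, SE 1.11, edgeR adjusted p = 0.128, and -2.57 without 3800). Sema3a, the classical repellent that binds Nrp1, was at 5.15, 4.02 and 10.8 CPM against 65.6 and 17.6 CPM (log2 fold change -2.64, SE 0.78, and -1.22 without 3800). For all 3 genes 3800 was the higher KP tumor by a wide margin. Per kilobase, Sema3f was 63.4, 144 and 36.7 times the level of Sema3e in the dFLEx tumors but 0.134 and 2.09 times in the KP tumors. The other 14 semaphorins had log2 fold changes between -1.17 (Sema3d) and 1.33 (Sema4g), and of these only Sema4a did not overlap, at 4.60, 9.05 and 10.6 CPM against 11.9 and 17.8 CPM.

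**Figure D3:**
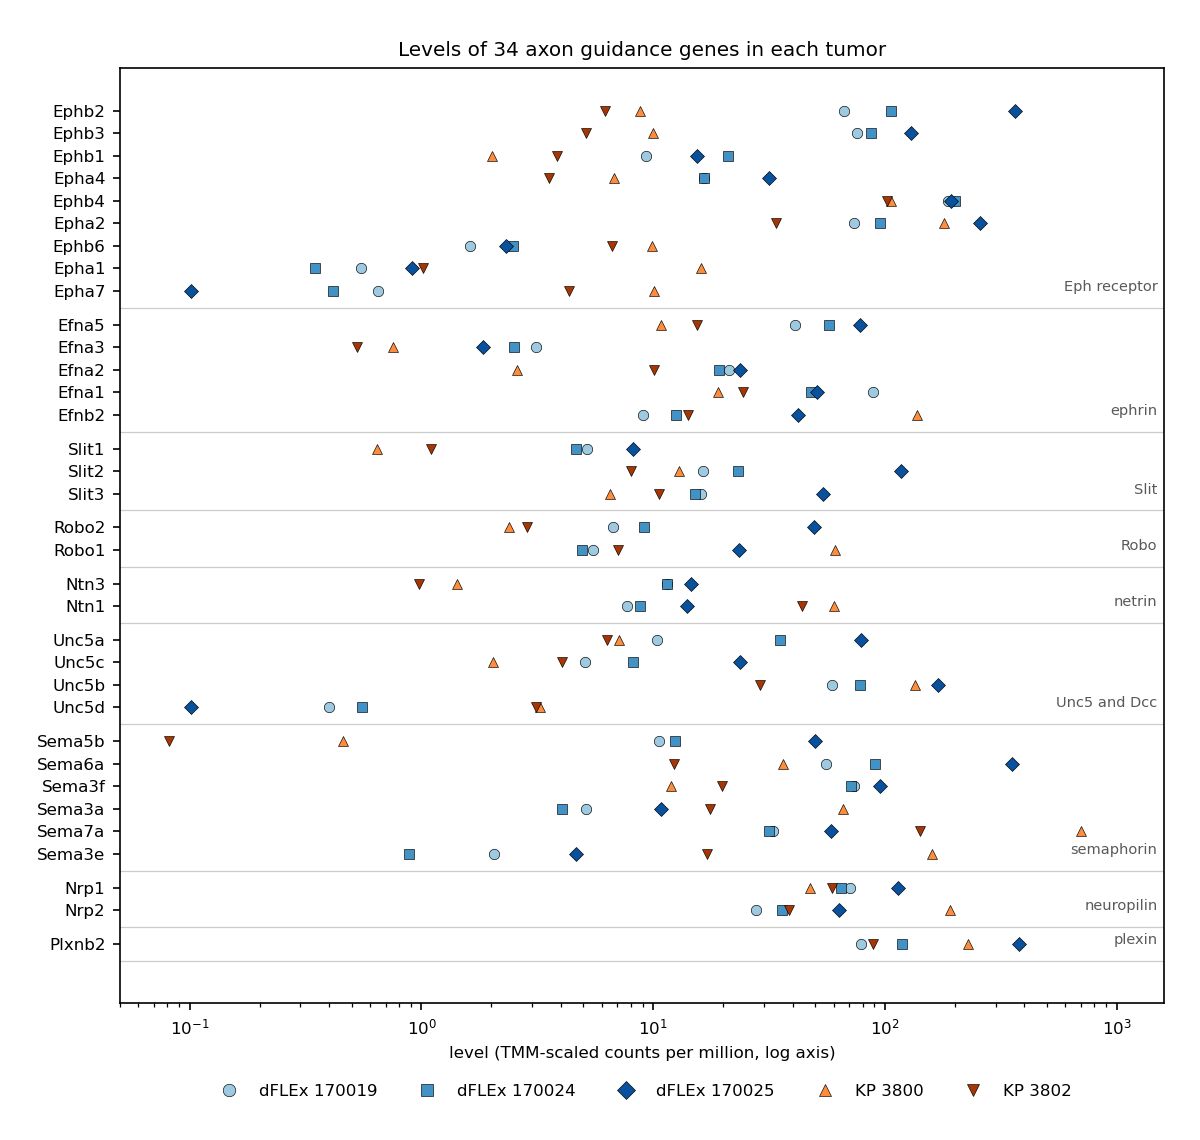
Level (x axis, TMM-scaled CPM on a log axis) of the 34 named members in each tumor, 1 symbol per tumor, ordered by log2 fold change within each family; blue symbols are the 3 dFLEx and orange the 2 KP tumors. The symbols separate by color for Ephb2, Ephb3, Efna1, Efna2, Efna3, Efna5, Ntn1, Ntn3, Sema5b and Sema7a. They mix for Epha2, Efnb2, Robo1, Unc5b, Nrp2 and Plxnb2. Efna4 is not among the named members and is not plotted.

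The receptors of the semaphorins differed least. All 9 plexins overlapped between groups and 0 of 9 had an unadjusted p under 0.05, beside 13.4% of tested protein-coding genes. Plexin log2 fold changes ran from -1.41 (Plxna1) to 0.33 (Plxna4). The direction of 4 of these (Plxna4, Plxnb3, Plxnc1 and Plxnd1) turned under at least 1 of 3 other scalings, so no direction is given for the family. Plxnb2, which binds class 4 semaphorins and was the most abundant plexin per kilobase in 4 of the 5 tumors, was at 78.8, 118 and 380 CPM against 228 and 89.1 CPM (log2 fold change 0.28, SE 0.81). Plxnd1, the receptor of Sema3e, was at 52.5, 83.2 and 157 CPM against 118 and 55.9 CPM. The plexins spread widely within each group: Plxna1 ran from 11.5 to 130 CPM in dFLEx and stood at 290 and 19.4 CPM in KP tumors. Nrp1, co-receptor for Sema3a and VEGF, was at 70.8, 64.8 and 114 CPM against 47.4 and 59.2 CPM (log2 fold change 0.64, SE 0.57, edgeR adjusted p = 0.853). Nrp2, co-receptor for Sema3f, was at 27.9, 36.0 and 63.5 CPM against 190 and 38.6 CPM, and its log2 fold change of -1.43 (SE 0.76) turned to 0.31 without 3800. Plxna1 and Plxna2 share 10.7% and 15.4% of their exonic bases with transcripts on the opposite strand.

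**Figure D4:**
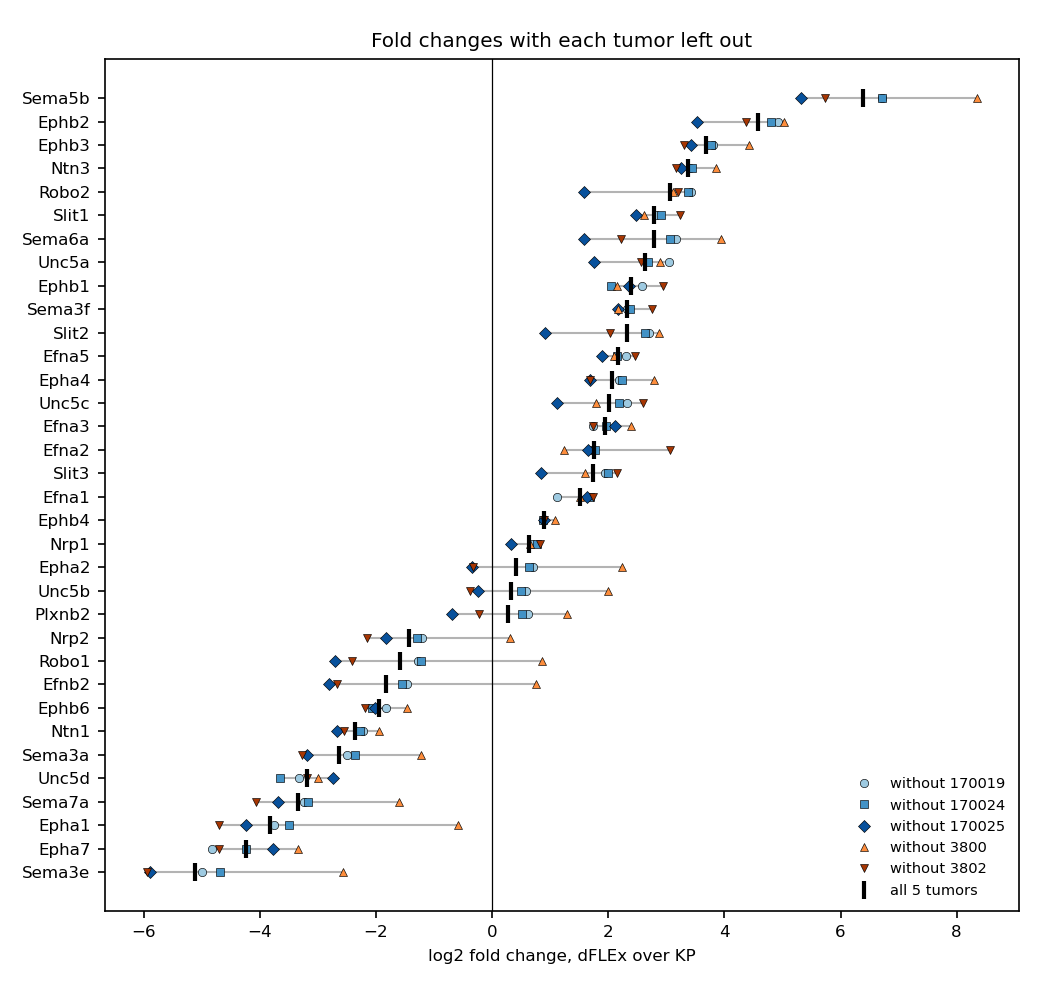
Log2 fold change (x axis, dFLEx over KP) of the 34 named members with all 5 tumors (black bars) and with each tumor left out in turn (symbols); grey lines span the range. Values without 3800 move most for members that are higher in KP tumors, such as Epha1 (-0.58 without it against -3.82), and values without 170025 move most for Robo2, Sema6a and Slit2.

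Other genes of the pathway were 63 co-receptors, cytoplasmic effectors and further guidance cues outside the families above. Of these 0 had an adjusted and 15 an unadjusted p under 0.05 (23.8%, 6 higher and 9 lower in dFLEx tumors). The unadjusted share was 10.6% of all tested and 13.4% of tested protein-coding genes. All dFLEx tumors lay above both KP tumors for 14.3% of the 63 genes and below both for 15.9%. Among tested protein-coding genes the shares were 16.3% and 12.4%, so separation was near that of other genes. Genes named below are examples from those that separated. The median log2 fold change of the 63 genes was -0.16, beside -0.18 over all tested and -0.04 over tested protein-coding genes. Draxin, a secreted netrin-binding cue, was at 17.6, 6.73 and 3.98 CPM against 0.484 and 1.02 CPM. Srgap1, which encodes a GTPase-activating protein that binds Robo receptors, was at 15.7, 27.8 and 74.9 CPM against 6.05 and 5.36 CPM. Both were higher in every dFLEx tumor, as were the semaphorin-response genes Dpysl5 (8.28, 3.99 and 15 CPM against 0.0537 and 0 CPM) and Dpysl4 (11.1, 7.87 and 11.1 CPM against 1.09 and 1.87 CPM). The related Crmp1 was lower, at 1.49, 1.86 and 3.26 CPM against 51.5 and 9.10 CPM. Also lower in every dFLEx tumor were the adhesion molecule Nrcam, at 0.995, 0.919 and 1.22 CPM against 180 and 11.7 CPM, the receptor kinase Met, at 1.22, 4.25 and 5.62 CPM against 126 and 16.7 CPM, and Flrt3, whose product binds Unc5 receptors, at 0.896, 0.624 and 1.13 CPM against 5.52 and 8.13 CPM. Members of one effector family thus lay on both sides. Of the Dpysl genes not named above, Dpysl2 was higher in every dFLEx tumor and Dpysl3 overlapped between groups.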

How the data were processed

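Reads of tumor RNA were trimmed by the authors with Trimmomatic (0.39), aligned with STAR (2.7.10a) to mm39 extended by the transgene, and counted with featureCounts (Subread 2.0.3). The deposited table holds raw counts per gene. Per the file headers each mate of a pair was counted and strand was ignored, so counting error exceeds what totals imply. One of 10 labelled libraries was not analysed here.

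Duplicates were summed per tumor. Genes kept by filterByExpr were TMM-scaled and compared with edgeR (4.0.16) glmQLFit and glmQLFTest, adjusting p by Benjamini-Hochberg across 24743 genes. CPM are TMM-scaled, and levels between genes were compared per kilobase of exon. Alternatives used limma-voom (3.58.1), DESeq2 (1.42.0), other scalings and filters, subtraction of a background per kilobase from receptor genes that such tumors lack, and each tumor left out. The background alternative by means and the trend removal (loess, span 0.3) were added after the data were seen, as were alternatives for overlap and pathway counts.

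Members and lists were chosen with earlier results of these data known. Named members (34) had an unadjusted p under 0.05, the highest level per kilobase of their family in a group, or its largest or smallest log2 fold change at a mean of at least 1 CPM. Depth limited detection to 3 counts, or 0.0378 to 0.122 CPM per tumor. One allele of the KP genotype is not reported here.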

Additional observations from a re-analysis of the deposited data

How the results depend on the processing

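With all 5 tumors 0 of 66 members passed the adjusted threshold (0.182% of all genes). The number called, with the share of all genes beside it, was 27 with libraries as independent samples (17.1%) and 35 with DESeq2 on those libraries (25.8%), both of which treat duplicates of a tumor as replicates, 20 with DESeq2 on tumor sums (6.13%), 7 with limma-voom (2.78%), 9 with no filter (1.98%), 1 with a mean of at least 1 CPM (0.521%), and 4 with the length and GC trend removed (0.768%), an alternative added after the data were seen. The cause was not tested. With the replicate block, duplicate number as a term on libraries, 20 members were called (12.7% of all genes) and 36 had an unadjusted p under 0.05 (26.8%), against 27 (17.1%) and 37 (30.2%) for libraries without it. Duplicate numbers did not pair tumors: differences between duplicates correlated at -0.03 to 0.11 between tumors. Leaving out each tumor gave 0 to 4 members called, 4 without 3802 (1.64% of all genes), and 17 to 26 with an unadjusted p under 0.05. Without 3800 or 3802 the lone KP tumor is assumed to vary like the dFLEx tumors. The count of 25 became 41 with DESeq2 on libraries (34.7% of all genes). Members without overlap numbered 32 with all tumors (48.5%, beside 25.4% of all genes) and 32 to 53 with a tumor left out. They numbered 53 without 3802 (80.3%, beside 59.9%) and 46 without 3800 (69.7%, beside 70.0%). Without 3800 the share of members was thus near that of all genes. Pathway genes with an unadjusted p under 0.05 numbered 15 in the main comparison (10.6% of all genes). They numbered 29 and 32 with libraries as independent samples in edgeR (30.2%) and DESeq2 (34.7%), and 27 with the replicate block (26.8%).

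Direction turned for 27 of 66 members when a tumor was left out, 14 without 3800 and 9 without 170025. Among the 34 named members 6 turned. Their log2 fold changes with a tumor left out ran from -2.70 to 0.86 for Robo1, -2.80 to 0.76 for Efnb2 and -2.15 to 0.31 for Nrp2, positive only without 3800, and from -0.34 to 2.24 for Epha2, -0.38 to 2.00 for Unc5b and -0.69 to 1.29 for Plxnb2, negative without 170025 (-0.34, -0.25 and -0.69) and without 3802 (-0.33, -0.38 and -0.23). With the trend removed Unc5b (-0.04) and Plxnb2 (-0.24) also turned. The median log2 fold change of all genes was -0.18, and -0.47 scaled by library totals or -0.34 by upper quartile. The direction of 7 members turned under these or DESeq2 size factors, none of them named. Subtracting the background per kilobase turned 0 of the 65 members it could be fitted for, but it could change little. The median background was 0 counts per kilobase in every tumor except 3802 (1.054), and the mean was 0.2208 to 2.623 counts per kilobase.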
